A study of Mus musculus with 12 samples.

Results

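Venous endothelial nuclei were drawn from single-nucleus RNA sequencing of 12 mouse lungs. The members were chosen by measured counts, and not by a deposited annotation. A barcode with 200 to 6000 detected genes and at most 5% mitochondrial transcripts was a member when at least 3 unique molecular identifiers (UMIs, counted RNA molecules) fell on at least 2 of 7 venous genes (Vwf, Slc6a2, Lhx6, Samd5, Amigo2, Cpe and Prss23) and when these genes held more UMIs than 12 genes of other vessels and of mural cells (Gja5, Gja4, Bmx, Dkk2, Kit, Glp1r, Ednrb, Edil3, Mmrn1, Itga8, Scube2 and Myh11). This rule took 1956 nuclei, which is 4.13% of the 47319 nuclei within the limits on genes and mitochondrial transcripts and part of 49163 deposited barcodes. A set of 9434 other endothelial nuclei of the same libraries served as the comparison. These had at least 3 UMIs over 2 or more of 8 pan-endothelial genes. They also had at least as many of these genes as marker genes of any non-endothelial cell type, which the rule did not ask of members.

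The lungs came from C57BL/6J mice that received bleomycin, which injures the lung and is followed by fibrosis, or PBS into the trachea. The mice were then given NVP-BHG712, an inhibitor of the receptor tyrosine kinase EphB4, or its vehicle by mouth. Each of the 4 groups (PBS vehicle, PBS NVP-BHG712, bleomycin vehicle and bleomycin NVP-BHG712) held 3 lungs with 1 library each. All lungs were perfused with PBS and frozen, and nuclei were sorted on DAPI, so cytoplasmic RNA was largely left behind and every cell type of the lung could enter. The labels gave run numbers to the PBS and bleomycin NVP-BHG712 libraries and batch numbers to the bleomycin vehicle libraries, with no number in common between any bleomycin group and another group, so in every comparison with a bleomycin group batch and treatment cannot be told apart.

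Veins carry blood from the alveolar capillaries back to the heart. Their endothelium stores von Willebrand factor for clotting (Vwf), is the wall through which leukocytes leave the blood by binding to selectins and other adhesion molecules, and keeps its identity through the transcription factor Nr2f2, which acts against the arterial Notch program. EphB4 is known as the receptor of venous endothelium, and its ligand ephrin-B2 (Efnb2) is known from arterial endothelium. The study asked whether blocking EphB4 alters the lung's response to bleomycin, and the members are the endothelial type in which the drug's target is a textbook marker.

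The members of single libraries numbered 168, 71 and 46 in PBS vehicle, 365, 68 and 33 in PBS NVP-BHG712, 37, 227 and 796 in bleomycin vehicle and 25, 82 and 38 in bleomycin NVP-BHG712. Their summed UMIs ran from 69743 to 3843202 per library, so the bleomycin NVP-BHG712 group rested on 145 nuclei and the bleomycin vehicle group on 1060. A count of 324 barcode sequences occurred in 2 or more libraries, and 0 of them was a member more than once.

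Vwf and Samd5, a SAM-domain gene, carried the rule. Vwf was seen in 94.4% of members and Samd5 in 85.1%. Slc6a2, the noradrenaline transporter, was seen in 60.1%, and Prss23, Lhx6, Cpe and Amigo2 in 23.9%, 21.8%, 21.0% and 17.6%. Slc6a2 was the most restricted of them: members held 88.5% of all its UMIs, against 62.2% of those of Vwf. The median member had 9 UMIs over the 7 genes. With 2 of the genes there were 745 members, with 3 there were 474, with 4 there were 384, and 16 showed all 7. These values chose the members and are given as a description. At the threshold, 221 members had exactly 3 UMIs, of which 65.6% met an endothelial criterion, and 236 nuclei with 2 UMIs lay just outside, of which 44.1% met it. A further 347 nuclei had enough venous UMIs and were refused because the opposing genes held as many or more.

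The label was checked against genes that the rule did not use. At least 2 of 8 pan-endothelial genes (Pecam1, Cdh5, Tek, Tie1, Ptprb, Egfl7, Erg and Shank3) were seen in 95.1% of members and in 27.8% of all other nuclei. At least 2 of 12 further venous genes were seen in 66.3% of members and in 15.2% of other nuclei. For general capillary endothelium, at least 2 of 8 genes were seen in 71.1% of members and in 28.8% of other nuclei. That list includes Kit and Glp1r, which the rule set against the venous genes. More members thus showed capillary genes than further venous genes. The stricter endothelial criterion asked for 2 or more pan-endothelial genes and at least as many of these as genes of any non-endothelial marker list. It was met by 1648 members (84.3%). The share was 70.9% to 78.3% in the bleomycin vehicle libraries and 87.9% to 100% in the other 9, so the groups did not overlap. In 48 members 0 of the 8 genes was seen. For comparison with a list that venous endothelium should lack, at least 2 of 8 genes of alveolar type 2 (AT2) cells were seen in 50.5% of members and in 46.2% of other nuclei. The other nuclei include those of AT2 cells themselves.

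**Figure D1:**
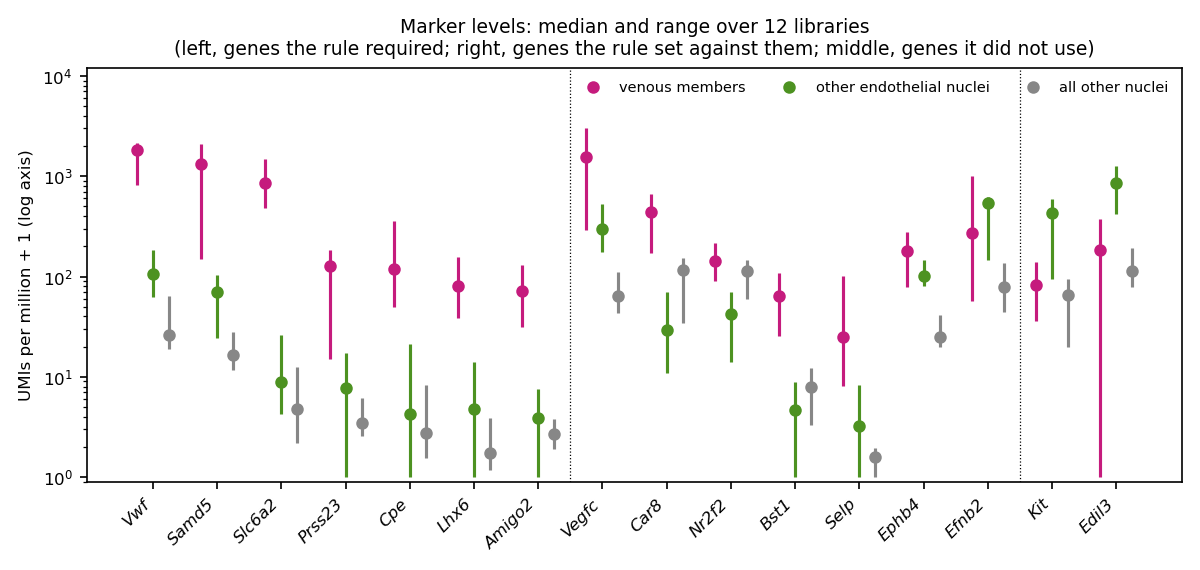
Levels of marker genes in CPM plus 1 on a log axis, as the median (point) and range (line) over the 12 libraries, for the venous members, the other endothelial nuclei and all other nuclei. Genes between the dotted lines were not used by the rule: Vegfc had a median of 1555 CPM in members and 295 in other endothelium, while Efnb2 had 272 and 542.

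Levels of the venous genes outside the rule differed widely among themselves. Vegfc, the lymphangiogenic growth factor, had a median over libraries of 1555 CPM (UMIs scaled to a common library total) in members, 295 in other endothelial nuclei and 62.5 in all other nuclei. Car8, a carbonic anhydrase-related protein, stood at 438 CPM against 28.1 in other endothelium, and Bst1, an ADP-ribosyl cyclase of the cell surface, at 62.6 against 3.71. Nr2f2 was at 142 CPM in members and 41.1 in other endothelium, and it was higher in the members in 12 of 12 libraries. Selp, the P-selectin that catches rolling leukocytes, was low at 23.7 CPM but also higher in 12 of 12. Ackr1, the chemokine receptor of venules in other organs, gave 3 UMIs in all 1956 members, and Moxd1, Mustn1 and Nr5a2 gave 12, 28 and 61. So 8 of the 12 genes were abundant enough to test between groups, and Ackr1 was close to undetected at this depth.

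Ephb4 and Efnb2 ran in opposite directions between members and pooled other endothelium. Ephb4 had a median of 181 CPM in members, 99.8 in other endothelium and 23.9 in all other nuclei, and members were above other endothelium in 11 of 12 libraries. Among marker-defined classes it was highest in general capillary nuclei, at 184 CPM, so the higher level was not particular to members. Efnb2 stood at 272 CPM in members and 542 in other endothelium, and members were below in 11 of 12. Of the other members of the family, Efnb1 stood at 40.8 CPM, while Ephb1, Ephb2 and Ephb3 had medians between 6.31 and 8.64 and Ephb6 and Efnb3 gave 5 UMIs and 1 UMI in all. As members against other nuclei is the contrast the rule was built on, no test was made of it.

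Of the genes outside the rule that stood highest in the members over all other nuclei, Gm5127 came first and Mmp16 next. Mmp16, a membrane-anchored matrix metalloprotease (GRCm38 chromosome 4, 17852893 to 18119145), reached 342 CPM and a median ratio of 76.5 over other nuclei. Tll1, a tolloid-like protease that processes collagen and BMP antagonists (chromosome 8, 64014931 to 64206271), reached 1349 CPM and a ratio of 40.8. Ackr3, a scavenging chemokine receptor, followed at a ratio of 27.7, the laminin chain Lama1 at 22.9 and Vegfc at 22.2. Among the first 20 were also the nitric oxide synthase Nos3 (14.9), the hyaluronan receptor Lyve1 (14.8), the transcription factor Gata3 (14.4), the phosphatase Ptprb (12.4) and the drug efflux pump Abcb1a (10.8), with the potassium channels Kcnc2 (18.6) and Kcnh1 (15.6), Myrip (15.9), Tmem2 (13.2), Mmrn2 (11.1) and Pde3a (10.6). The remaining 4 carried predicted-gene symbols, led by Gm5127 with a ratio of 139.

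Set against other endothelium, Mmp16 came first with a median ratio of 50.1 and Gm5127 next with 40.7, and Bst1 (23.0) and Car8 (14.1) were near the top. Dnm3, a dynamin, had 1264 CPM in members and 101 in other endothelium, a ratio of 13.2. Rarb, a retinoic acid receptor, followed at a ratio of 13, with Tll1 (12.3), the phospholipase Pla2g4a (12.3), the Rac regulator Chn2 (11.6), Tmem45a (9.35), Ctnnal1 (7.48), Kirrel3 (6.83), Ackr3 (6.54), Kcnc2 (6.40), Flvcr2 (6.10), Eps8 (5.80), the adhesion receptor Adgrg6 (5.79) and the sialyltransferase St6gal1 (5.63). Among 3533 genes outside the rule with a mean of at least 50 CPM in members, 166 were higher in members than in other endothelium in every library.

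The members were not uniform. The 1175 with a Slc6a2 UMI and the 781 without had like depth, with medians of 2770 and 2879 UMIs per nucleus, but unlike makeup. At least 2 further venous genes were seen in 79.5% of nuclei with Slc6a2 and in 46.4% of those without, while at least 2 arterial genes (Efnb2, Sox17, Hey1, Fbln5 and 4 genes of the rule) were seen in 15.7% and 31.9%. The most frequent combination was Vwf with Samd5 and no other venous gene, in 482 members. In these nuclei 36.5% had at least 2 further venous genes and 38.0% at least 2 arterial ones, 85.3% met the endothelial criterion, and general capillary genes made up 0.634% of UMIs against 0.403% in nuclei with Slc6a2. As Slc6a2, Vwf, Samd5 and 4 of the arterial genes belong to the rule, these shares are a description of what it took in. Nuclei with Slc6a2 made up 47.8% to 67.6% of members in PBS vehicle, 39.4% to 69.6% in PBS NVP-BHG712, 51.6% to 74.9% in bleomycin vehicle and 60.5% to 68.0% in bleomycin NVP-BHG712, ranges that overlapped between all groups.

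**Figure D2:**
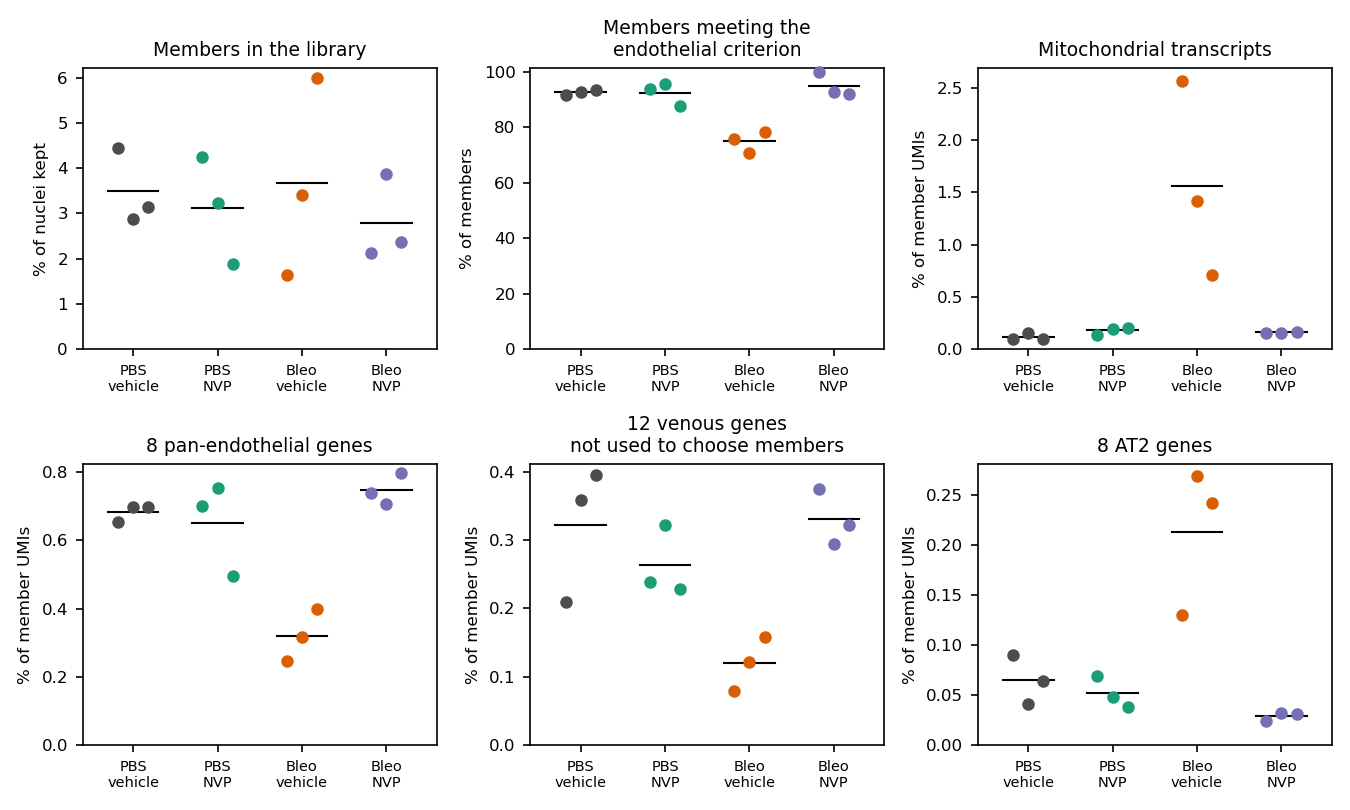
Members in each library: their percentage of all kept nuclei, the percentage meeting the endothelial criterion, and the percentage of their summed UMIs from mitochondrial transcripts, 8 pan-endothelial genes, 12 venous genes outside the rule and 8 AT2 genes. Points are libraries and bars are group means of 3; bleomycin vehicle stood apart in every panel but the first, with mitochondrial transcripts of 0.710% to 2.57% against 0.0950% to 0.205% elsewhere.

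The abundance of venous nuclei did not differ detectably between groups. Members made up 3.49% ± 0.849 (SD, n = 3) of nuclei in PBS vehicle, 3.12% ± 1.18 in PBS NVP-BHG712, 3.68% ± 2.20 in bleomycin vehicle and 2.78% ± 0.945 in bleomycin NVP-BHG712. The bleomycin vehicle libraries alone spanned 1.63% (exact binomial 95% interval 1.15% to 2.24%), 3.40% (2.98% to 3.87%) and 6.00% (5.6% to 6.41%), a wider range than that between any 2 group means. Exact two-sided permutation tests over libraries gave adjusted p = 0.8 for each of the 4 comparisons, where 3 libraries against 3 cannot go below 0.1. As a share of endothelial nuclei, members were 14.3% ± 2.36 in PBS vehicle, 12.5% ± 2.63 in PBS NVP-BHG712, 18.5% ± 5.72 in bleomycin vehicle and 13.9% ± 1.81 in bleomycin NVP-BHG712 (exact permutation, adjusted p = 0.6 for each). When nuclei were thinned to 1000 UMIs and shallower ones left out, 3717, 1706 and 1117 nuclei remained in the PBS vehicle libraries and 1240, 4305 and 12430 in bleomycin vehicle. Bleomycin vehicle was then below PBS vehicle on both measures, by 0.827 percentage points of all nuclei and 1.15 of endothelial nuclei. Whether the equal depth or the loss of shallow nuclei reversed these directions was not tested.

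Before expression was compared, the bleomycin vehicle members were seen to differ from the other 9 libraries in several general ways. Mitochondrial transcripts made up 2.57%, 1.42% and 0.710% of their UMIs, against 0.0950% to 0.205% elsewhere. The 8 AT2 genes made up 0.130% to 0.269% against 0.0244% to 0.0899%, the 8 fibroblast genes 0.0575% to 0.0825% against 0.00287% to 0.0431%, and the 8 pan-endothelial genes 0.246% to 0.4% against 0.495% to 0.797%. Library 3 of this group also had 19.2% of members scored as likely doublets, where the other libraries had 0% to 11.5%. The share flagged was set to grow with the number of nuclei. In this library, the largest, 1410 of all 13277 kept nuclei were flagged. In library 1 of PBS NVP-BHG712, with the 11.5%, 593 of 8610 were flagged. These values moved with the same groups as most of the differences that follow. Their part in those differences was not tested, and adjusted p-values from the 1648 endothelial members, or from these without likely doublets, are given for the calls named below that did not hold there.

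Bleomycin vehicle was compared with PBS vehicle, a contrast in which batch and injury cannot be told apart. UMIs were summed over members in each library and tested with edgeR's quasi-likelihood test with Benjamini-Hochberg adjustment over 4145 genes. At an adjusted p under 0.05, 24 genes differed (0.579% of those tested), 20 higher (0.483%) and 4 lower (0.0965%) after bleomycin. The mitochondrial genome supplied 11 of the 20, which were all of its tested genes. High mitochondrial content was not particular to members. A limit of 1% mitochondrial UMIs kept 736, 2946 and 8677 of all 2274, 6670 and 13277 nuclei of the bleomycin vehicle libraries. Of their 257, 974 and 2521 other endothelial nuclei it kept 66, 375 and 1366. In PBS vehicle it kept 3756, 2437 and 1434 of 3771, 2477 and 1465 nuclei. mt-Atp6, a subunit of ATP synthase, was at 135, 174 and 107 normalized CPM (CPM after TMM scaling for composition) in PBS vehicle and at 6282, 2479 and 1081 in bleomycin vehicle, with which is 4.54 ± 0.55 higher on the log2 scale (estimate ± SE here and below; edgeR, adjusted p = 0.000951). mt-Cytb (4.34), mt-Nd1 (4.21), mt-Co1 (4.21), mt-Co2 (4.14), mt-Co3 (4.13), mt-Nd5 (4.09), mt-Nd3 (3.77) and mt-Nd2 (3.71) rose alongside on the log2 scale. With mitochondrial genes left out of library sizes and tests, an alternative chosen after seeing the data, 2 genes differed. The number was also 10 without PBS vehicle library 2, 12 without PBS vehicle library 3 or bleomycin vehicle library 2, 96 without PBS vehicle library 1 and 139 without bleomycin vehicle library 3.

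Outside the mitochondrial genome, Gas7, an actin-binding protein that was highest in macrophage nuclei, rose by 3.89 ± 0.72 (edgeR, adjusted p = 0.0255). It passed in 16 of 23 alternatives, had an adjusted p of 0.0809 (edgeR) without likely doublets, and was too low to test in endothelial members without them. Sftpc, the surfactant protein of AT2 cells, rose by 2.97 ± 0.46 (adjusted p = 0.00637, edgeR), from 192, 63.4 and 179 normalized CPM to 523, 1637 and 1284. It was the only AT2 gene of 8 tested that passed, though all 8 had positive values with a median of 1.46 against 0.01 for all genes tested. Among the falls, Pde4b, which breaks down cyclic AMP, was at 559, 544 and 607 normalized CPM in PBS vehicle and at 145, 196 and 253 in bleomycin vehicle (log2 -1.46 ± 0.23, edgeR, adjusted p = 0.00568). It passed in 22 of 24 alternatives. Acer2, an alkaline ceramidase (log2 -1.21 ± 0.22, adjusted p = 0.0182, edgeR), and St6galnac3, a sialyltransferase (log2 -1.10 ± 0.22, adjusted p = 0.0296, edgeR), were lost when only endothelial members were kept (adjusted p = 0.101 and 0.121). The fourth gene that fell had a predicted-gene symbol.

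The endothelial lists held no called gene in this comparison. The 8 pan-endothelial genes had a median log2 change of -0.85, with 8 of 8 negative and 0 called, and the 8 tested venous genes outside the rule had a median of -0.97, with 7 of 8 negative and 0 called. Vegfc came closest, at 978, 2066 and 2865 normalized CPM in PBS vehicle and 397, 609 and 916 in bleomycin vehicle (log2 -1.58 ± 0.38, edgeR, adjusted p = 0.0667). Nr2f2 had a log2 value of -0.03 ± 0.34, with overlapping libraries in all groups. Leukocyte adhesion genes had 0 of 9 tested genes called (median -0.40): Vcam1, the adhesion molecule of inflamed endothelium, had a value of -1.07 ± 0.43 (edgeR, adjusted p = 0.245), and Icam1 of 0.47 ± 0.43 (adjusted p = 0.671, edgeR). Of inflammatory activation 0 of 10 tested genes passed (median 0.13), of the interferon response 0 of 5 (-0.11), of MHC genes 0 of 4 (-0.17), of p53 and DNA damage genes 0 of 4 (0.60) and of endothelial-to-mesenchymal genes 0 of 5 (0.52). Of 16 proliferation genes 0 had enough UMIs to be tested. As 0.579% of all genes tested were called in this comparison, 0 calls in lists of this size do not set them apart.

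**Figure D3:**
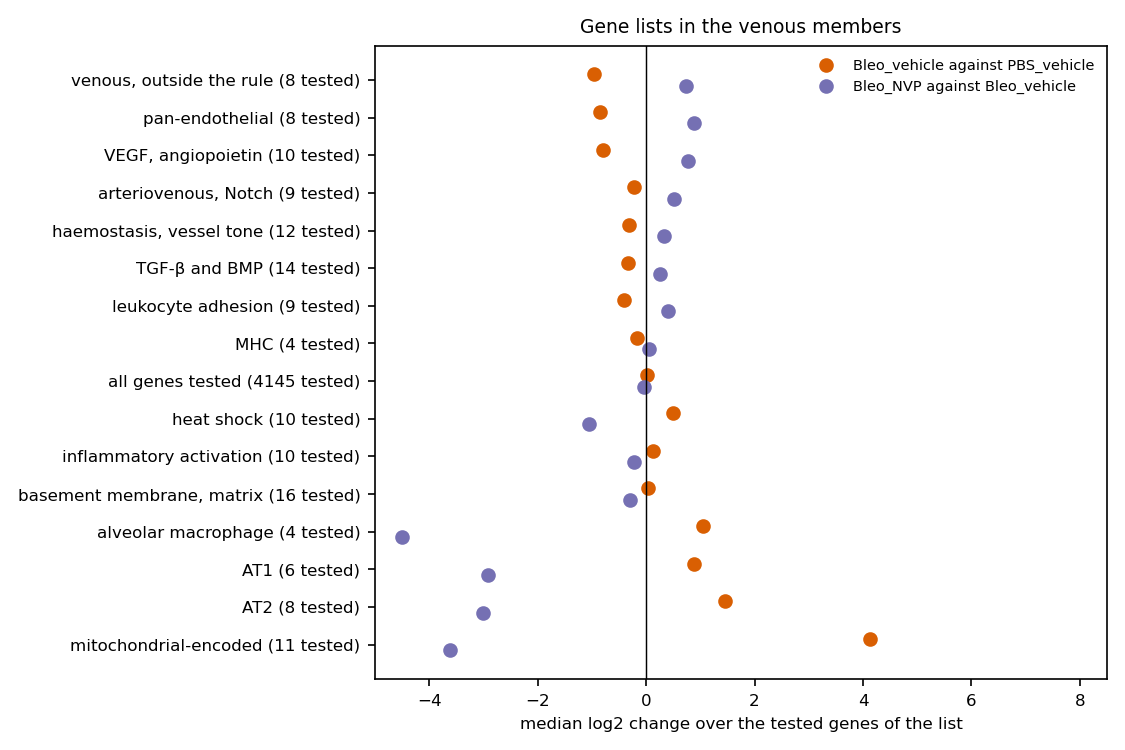
Median log2 change of each gene list over its tested genes in the venous members, for bleomycin vehicle against PBS vehicle and for bleomycin NVP-BHG712 against bleomycin vehicle. The comparisons share the bleomycin vehicle libraries; the 11 mitochondrial genes had medians of 4.13 and -3.62 and the 8 pan-endothelial genes of -0.85 and 0.88.

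Bleomycin NVP-BHG712 was compared with bleomycin vehicle, where batch and inhibitor cannot be told apart. This comparison had more called genes than any other: 326 of 4145 (7.86%), with 130 higher (3.14%) and 196 lower (4.73%) under NVP-BHG712. It shares the bleomycin vehicle libraries with the comparison above, so a high or low value in those libraries enters both with opposite sign. The 130 higher genes were mostly ones that members expressed above other nuclei. Of these, 95 (73.1%) were more than 2-fold higher in members than in all other nuclei, as against 430 (10.4%) of the genes tested. Of the 196 lower genes, 170 (86.7%) were lower in members than in other nuclei, as against 47.5% of the genes tested, and 42 (21.4%, against 5.84%) were more than 10 times higher in another marker-defined class. Some classes were small: Schwann, cardiomyocyte and neuroendocrine classes held 2, 8 and 40 nuclei, and 2, 2 and 3 of the 42 genes were highest there. Against other endothelium the rises and falls were alike: 87 (66.9%) of the higher and 128 (65.3%) of the lower genes were above it in members. Of the genes tested 58.5% were. All 11 tested mitochondrial genes were among the falls. When only the 1648 endothelial members were kept, 124 genes passed, 114 of them shared with the 326. Without likely doublets 94 passed, and with both limits 60, of which 57 were shared. Without library 1, 2 or 3 of bleomycin NVP-BHG712, 35, 210 and 75 genes passed, and without library 1 or 2 of bleomycin vehicle 200 and 50.

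The largest rise among the genes chosen by size was that of Ptgs2. Ptgs2, the inducible cyclooxygenase of prostaglandin synthesis (GRCm38 chromosome 1, 150100031 to 150108227), was at 0, 22.7 and 15.3 normalized CPM in bleomycin vehicle and at 292, 66.9 and 106 in bleomycin NVP-BHG712, on 78 and 44 UMIs in all. The log2 change was 3.08 ± 0.59 (edgeR, adjusted p = 0.00966), and it passed in 23 of 24 alternatives. In the PBS groups Ptgs2 was at 26.4 to 53 and 61.5 to 102. Chrm3, the muscarinic acetylcholine receptor of the Gq-coupled kind, was at 58.1, 154 and 278 in bleomycin vehicle and at 1126, 592 and 920 in bleomycin NVP-BHG712 (log2 2.25 ± 0.39, edgeR, adjusted p = 0.00736). Hmcn1, the extracellular matrix protein hemicentin-1 (chromosome 1, 150562524 to 150993435), was at 571, 895 and 1531 and at 4544, 3334 and 4093 (log2 1.97 ± 0.32, adjusted p = 0.00507, edgeR). Chrm3 and Hmcn1 passed in 24 of 24 alternatives, including the endothelial members without likely doublets (log2 1.97 and 1.63).

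The other rises chosen by size were Lmo2 (2.39 ± 0.48), a hematopoietic and endothelial transcription cofactor, the protease Tll1 (2.35 ± 0.57), Emcn (2.30 ± 0.61), the endomucin of venous and capillary surfaces, the aspartic protease Bace2 (2.16 ± 0.50), Gata3 (2.02 ± 0.43), Nxpe2 (1.97 ± 0.47) and Palmd (1.94 ± 0.44), each on the log2 scale with its SE. The choice required that the libraries of both groups did not overlap. Lmo2 kept an adjusted p of 0.0455 (edgeR) in endothelial members without likely doublets. In the same subset Tll1 had 0.0867, Emcn 0.176, Bace2 0.0615, Gata3 0.0996, Nxpe2 0.135 and Palmd 0.123, with log2 values between 1.33 and 1.87. Emcn also differed strongly among the 3 libraries of each group, at 9.68, 80.2 and 165 and at 1042, 229 and 342.

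**Figure D4:**
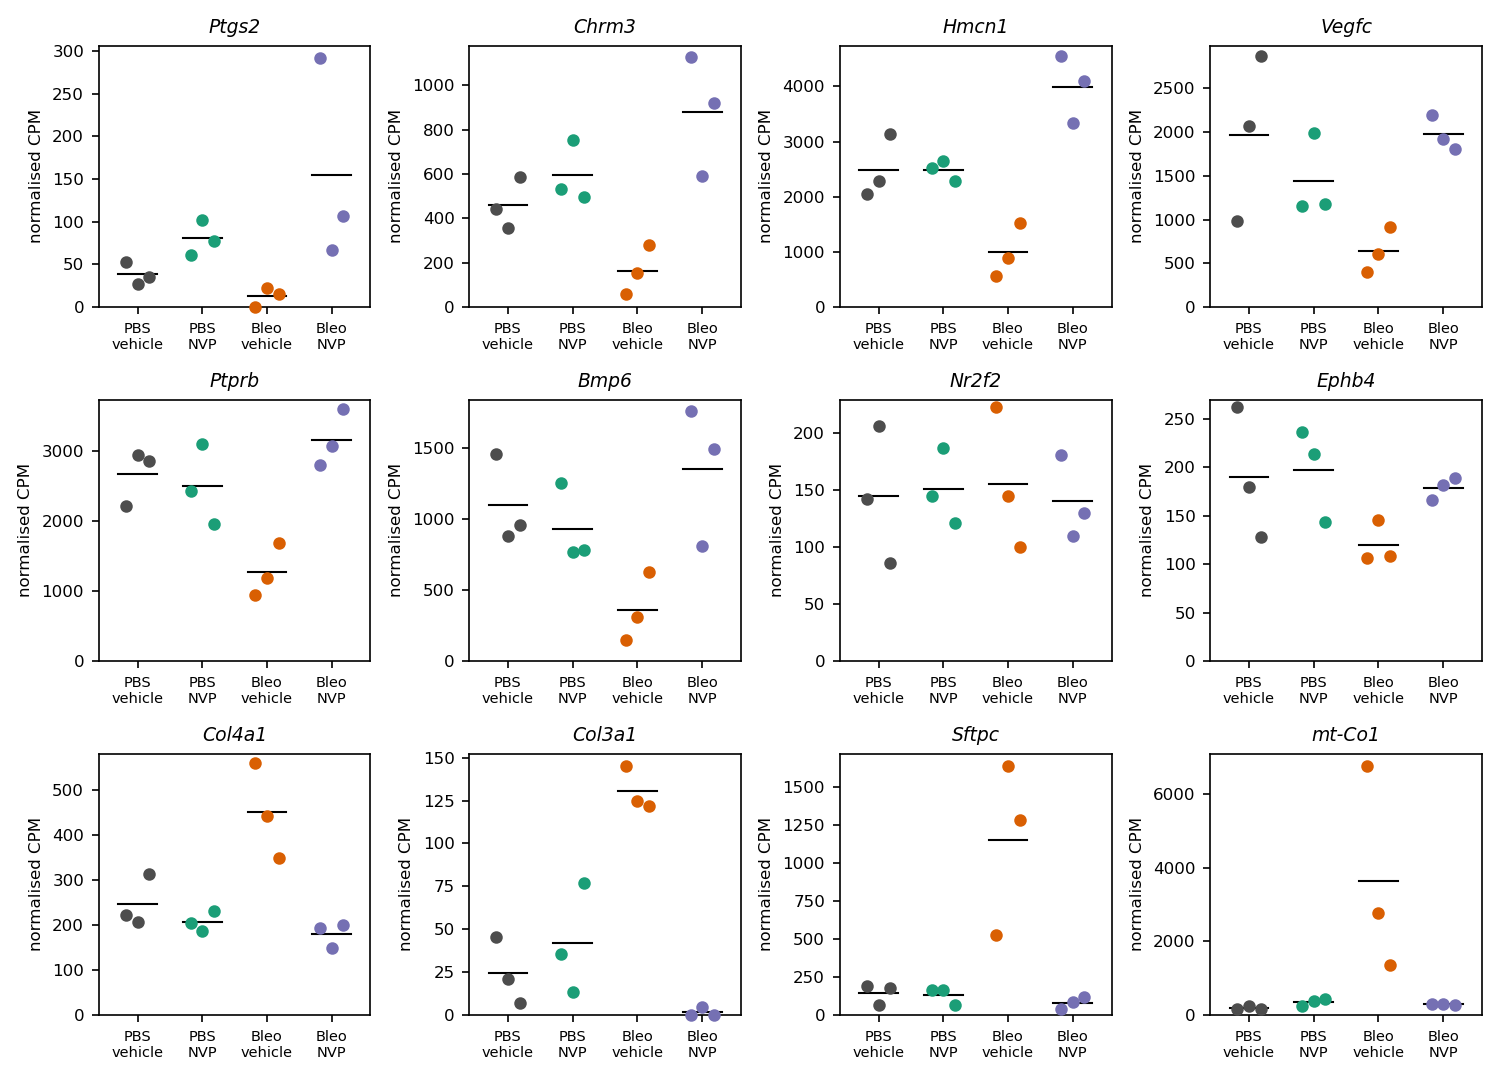
Normalized CPM of 12 genes in the venous members by library, with group means as bars (n = 3). Ptgs2, Chrm3, Hmcn1, Vegfc, Ptprb and Bmp6 were higher in bleomycin NVP-BHG712 than in bleomycin vehicle without overlap, Nr2f2 overlapped between all groups, and Col4a1, Col3a1, Sftpc and mt-Co1 were lower without overlap.

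By function, several rises lay in the vessel-identity and growth factor lists. Of all genes tested 3.14% rose and 4.73% fell, so a single call in a short list here and below does not set that list apart. Of 8 pan-endothelial genes 3 rose and 0 fell (median 0.88, against -0.04 for all genes tested). Ptprb, the phosphatase that restrains the Tie2 receptor, was at 939, 1178 and 1689 normalized CPM in bleomycin vehicle and at 2793, 3067 and 3598 in bleomycin NVP-BHG712 (log2 1.30 ± 0.28, edgeR, adjusted p = 0.0144). The transcription factor Erg (1.21) and the scaffold Shank3 (0.97) also rose, while Pecam1 had a value of 0.41 ± 0.27 (adjusted p = 0.393, edgeR) and Cdh5 of 0.57 ± 0.27 (adjusted p = 0.218, edgeR). Of the 8 tested venous genes outside the rule, Vegfc (1.59 ± 0.38, edgeR, adjusted p = 0.0243) and Car8 (1.02 ± 0.28, adjusted p = 0.0393, edgeR) rose, with a list median of 0.74. Car8 was at 232, 260 and 237 normalized CPM and then at 486, 387 and 637, and its log2 value in endothelial members without likely doublets was 1.40 (edgeR, adjusted p = 0.041). In that subset Ptprb had 0.80 (adjusted p = 0.205), Vegfc 1.08 (0.154) Erg 0.78 (0.213) and Shank3 0.54 (0.327), so these 4 calls were lost there.

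In the TGF-β and BMP list 2 of 14 tested genes rose, against 3.14% of all genes tested. Bmp6, a BMP ligand that endothelium makes, was at 145, 312 and 629 normalized CPM and at 1765, 812 and 1498 (log2 1.81 ± 0.43, edgeR, adjusted p = 0.0257), and its receptor Bmpr2, whose loss is known in pulmonary hypertension, at 929, 1473 and 1555 and at 3404, 2742 and 2170 (log2 1.06 ± 0.27, adjusted p = 0.0283, edgeR). In the VEGF and angiopoietin list Vegfc and Ptprb rose and Angpt1, a Tie2 ligand made mainly by mural and stromal cells, fell by 4.17 on the log2 scale, among 10 tested. In the list for hemostasis and vessel tone 2 of 12 rose, Ptgs2 and Entpd1 (0.87 ± 0.25, edgeR, adjusted p = 0.0469), the ectonucleotidase that limits platelet activation. Nos3 had a value of 1.13 ± 0.35 (adjusted p = 0.0572, edgeR). Of 4 tested general capillary genes Cd93 rose (1.13), of 10 inflammatory genes Il6st (1.01), the shared receptor of the IL-6 family, and of 5 endothelial-to-mesenchymal genes Zeb1 (0.98). Apart from Ptgs2 and the Vegfc and Ptprb values given above, each of these calls was lost in endothelial members without likely doublets. The adjusted p-values there (edgeR) were 0.197 for Bmp6, 0.264 for Bmpr2, 0.0647 for Angpt1, 0.289 for Entpd1, 0.402 for Cd93, 0.128 for Il6st and 0.283 for Zeb1.

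Leukocyte adhesion, interferon, MHC, p53, immediate-early, clock, arteriovenous Notch and EphB lists had 0 called genes in this comparison. Their tested genes numbered 9, 5, 4, 4, 5, 7, 9 and 3, in that order. Of all genes tested 7.86% were called, so 0 calls in lists this short do not show that they were unaffected. Vcam1 had a log2 value of 1.37 ± 0.47 (edgeR, adjusted p = 0.0866) and was at 19.4, 27.5 and 49.1 normalized CPM in bleomycin vehicle and 125, 86.0 and 82.6 in bleomycin NVP-BHG712. Selp was at 9.68, 13.2 and 17.4 and at 97.3, 9.55 and 82.6, so its libraries overlapped. Nr2f2 again had a value near 0 (-0.09 ± 0.38).

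Of 16 tested matrix genes 4 fell and 1 rose, with a median log2 value of -0.30 and 9 of 16 negative. Of all genes tested 4.73% fell and 3.14% rose. Col4a1, a basement membrane collagen that endothelium makes, was at 561, 444 and 349 normalized CPM in bleomycin vehicle and at 195, 148 and 201 in bleomycin NVP-BHG712 (log2 -1.32 ± 0.27, edgeR, adjusted p = 0.012), while the PBS groups stood at 187 to 314. It held in endothelial members (log2 -1.36, adjusted p = 0.0297, edgeR) and was at adjusted p = 0.0525 when likely doublets were also removed. Col4a2, which is transcribed from the same promoter region in the opposite direction, had a value of -1.01 ± 0.34 (adjusted p = 0.0791, edgeR). Sparc (-3.01), Mgp (-3.00) and Fn1 (-4.58) fell as well, as did the interstitial collagen Col3a1 in the mesenchymal list (-5.48 ± 0.93, edgeR, adjusted p = 0.00603). Col3a1 was at 145, 124 and 122 normalized CPM in bleomycin vehicle and at 0, 4.78 and 0 in bleomycin NVP-BHG712, on 589 UMIs and 1 UMI in all. Ltbp1, which tethers latent TGF-β to matrix, rose by 1.61 ± 0.43 (adjusted p = 0.0363, edgeR), with 1 library at 1191 and the others at 389 and 373 against 177 to 237. Among members with Slc6a2 the Ltbp1 value was 0.56 (edgeR, adjusted p = 0.377). In endothelial members without likely doublets Sparc kept an adjusted p of 0.034 (edgeR), Mgp had 0.0507, Fn1 0.0675 and Ltbp1 0.0938, and Col3a1 was too low to test.

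The largest falls were genes of other cell types. Csmd1, Ankfn1, Ctss, Cd84, Rgs22, Akap5 and Rab3c gave 0 UMIs in the 145 members of bleomycin NVP-BHG712 and between 294 and 447 UMIs in the 1060 of bleomycin vehicle. Against a floor of 3 counts over the group they were at least 9.96-, 10.7-, 8.53-, 7.07-, 7.02-, 8.17- and 8.12-fold lower. Ctss, the cathepsin of antigen-presenting cells, was highest in alveolar macrophage nuclei, Ankfn1 and Rgs22 in ciliated nuclei and Akap5 in alveolar type 1 nuclei. Csmd1 was highest in the Schwann class, which held only 2 nuclei, and Rab3c in the neuroendocrine class of 40. The others chosen by size were Arhgap15, Rnf150 and Dock2, at 1, 1 and 2 UMIs in bleomycin NVP-BHG712 against 967, 761 and 1253. Rnf150 held in endothelial members without likely doublets (edgeR, adjusted p = 0.0367), Arhgap15 had 0.193 and Dock2 0.0615, and the 7 genes at 0 UMIs were too low to test. Of the AT2 list 5 of 8 fell (Sftpc, Sftpb, Sftpa1, Lamp3 and Slc34a2), with Sftpb, a surfactant protein, at 532, 320 and 296 normalized CPM and then at 27.8, 23.9 and 23.6 (log2 -3.89 ± 0.50, edgeR, adjusted p = 0.0032). In alveolar type 1, alveolar macrophage and fibroblast lists 2 of 6, 2 of 4 and 2 of 3 tested genes fell. Sftpb and Sftpc passed in 24 of 24 alternatives. The heat shock list had 1 fall of 10 tested, Hsp90aa1 (adjusted p = 0.0532, edgeR, in endothelial members without likely doublets), and a median of -1.05. Over all genes tested the share that fell was 4.73%.

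The inhibitor's target did not pass the test in any comparison of the members. Ephb4 (chromosome 5, 137350109 to 137378669) was at 262, 180 and 129 normalized CPM in PBS vehicle, 236, 214 and 143 in PBS NVP-BHG712, 106, 146 and 109 in bleomycin vehicle and 167, 182 and 189 in bleomycin NVP-BHG712. The bleomycin groups did not overlap, but the value for bleomycin NVP-BHG712 against bleomycin vehicle was 0.55 ± 0.30 on the log2 scale (edgeR, adjusted p = 0.292), and for bleomycin vehicle against PBS vehicle -0.70 ± 0.28 (edgeR, adjusted p = 0.234). Efnb2 was at 249, 164 and 957 in PBS vehicle, 277, 338 and 342 in PBS NVP-BHG712, 77.4, 157 and 248 in bleomycin vehicle and 83.4, 353 and 271 in bleomycin NVP-BHG712, and only PBS NVP-BHG712 and bleomycin vehicle did not overlap. Its values were -1.32 ± 0.61 (edgeR, adjusted p = 0.329) and 0.51 ± 0.64 (adjusted p = 0.694, edgeR). Transcript counts say nothing of the kinase activity that the inhibitor blocks.

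In uninjured lungs the inhibitor gave no called gene. Of 4145 genes 0 passed (0%) between PBS NVP-BHG712 and PBS vehicle by edgeR, with 33 at an unadjusted p under 0.05, and DESeq2 also called 0. Blocking on the labelled run number also gave 0. That fit had little power, as run 3 held PBS NVP-BHG712 library 3 alone and this library could not inform the comparison. Between bleomycin NVP-BHG712 and PBS NVP-BHG712, 0 genes passed as well (0%, 240 at an unadjusted p under 0.05). Differences of the inhibitor's effect between injured and uninjured lungs were tested with an interaction term, which 18 genes passed (0.434%), 4 with a higher and 14 with a lower value under bleomycin. The 4 were Pcdh7, a protocadherin (2.75 ± 0.51, edgeR, adjusted p = 0.029), Rarb (2.04 ± 0.38), the endothelial transcription factor Fli1 (1.75 ± 0.33) and St6galnac3 (1.73 ± 0.31). The 4 were lost in endothelial members without likely doublets (edgeR, adjusted p = 0.0989, 0.268, 0.363 and 0.3). Fli1 was at 1026, 1141 and 1136 normalized CPM in PBS vehicle, 943, 1076 and 881 in PBS NVP-BHG712, 542, 414 and 636 in bleomycin vehicle and 1820, 1280 and 1640 in bleomycin NVP-BHG712. Of the 14, Col3a1 (-5.68), Sh3rf3 (-5.17), mt-Cytb (-4.61), mt-Atp6 (-4.50) and mt-Co1 (-4.43) had the largest values. The number rested on single libraries. It was 0 without any 1 library of bleomycin NVP-BHG712, without PBS NVP-BHG712 library 3 or without PBS vehicle library 3, 5 without bleomycin vehicle library 2 or PBS vehicle library 2, and 7 without PBS NVP-BHG712 library 1. It was 44, 96 and 146 without PBS NVP-BHG712 library 2, bleomycin vehicle library 3 and PBS vehicle library 1.

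A comparison within libraries set the change in members against the change in other endothelial nuclei, so that anything acting alike on both classes of a library cancels. The other endothelial nuclei all met the endothelial criterion by their definition, against 70.9% to 78.3% of members in bleomycin vehicle. RNA of other cell types therefore need not cancel, and its part was not tested. Over 8205 genes, 9 (0.11%) differed in this way for bleomycin vehicle against PBS vehicle and 38 (0.463%) for bleomycin NVP-BHG712 against bleomycin vehicle, 22 of these with a higher value in members. Without bleomycin NVP-BHG712 library 1, 2 or 3, without bleomycin vehicle library 2 and without PBS NVP-BHG712 library 3 the 38 became 16, 25, 15, 18 and 70. The 9 became 5 without bleomycin vehicle library 2, 18 without bleomycin NVP-BHG712 library 3 or PBS vehicle library 3, 22 without PBS vehicle library 1 and 37 without PBS NVP-BHG712 library 3. Several of these genes were markers of the members that exceeded other endothelium by less in bleomycin vehicle. Dnm3 (chromosome 1, 161982453 to 162478034) averaged 1324 ± 506 (SD, n = 3) normalized CPM in members of PBS vehicle, 1283 ± 345 in PBS NVP-BHG712, 446 ± 251 in bleomycin vehicle and 1877 ± 87.4 in bleomycin NVP-BHG712, while other endothelium averaged between 72.7 and 118. The difference of effects for NVP-BHG712 under bleomycin was 2.45 ± 0.32 (log2, edgeR, adjusted p = 0.000215), it passed in 20 of 20 alternatives, and it was 2.10 in endothelial members without likely doublets. Rarb differed in both comparisons, by -2.10 ± 0.33 (edgeR, adjusted p = 0.00115) for bleomycin vehicle and 2.19 for NVP-BHG712 under bleomycin, as did St6gal1 (-1.49 and 1.87) and Cd200 (-1.25 and 1.49), an immune-inhibitory surface protein. Lpcat2 (2.95), Pla2g4a (2.56), the phospholipase that frees arachidonic acid for prostaglandin synthesis, Bace2 (2.51) and Chn2 (2.36) were the other named genes with a higher value in members. In endothelial members without likely doublets Dnm3, Rarb, and, for NVP-BHG712 under bleomycin, St6gal1 and Cd200 held (edgeR, adjusted p = 0.033 and 0.0386 for the last pair). St6gal1 and Cd200 were lost there for bleomycin vehicle (0.0527 and 0.0957), as were Lpcat2 (0.111), Pla2g4a (0.107), Bace2 (0.0827) and Chn2 (0.193).

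**Figure D5:**
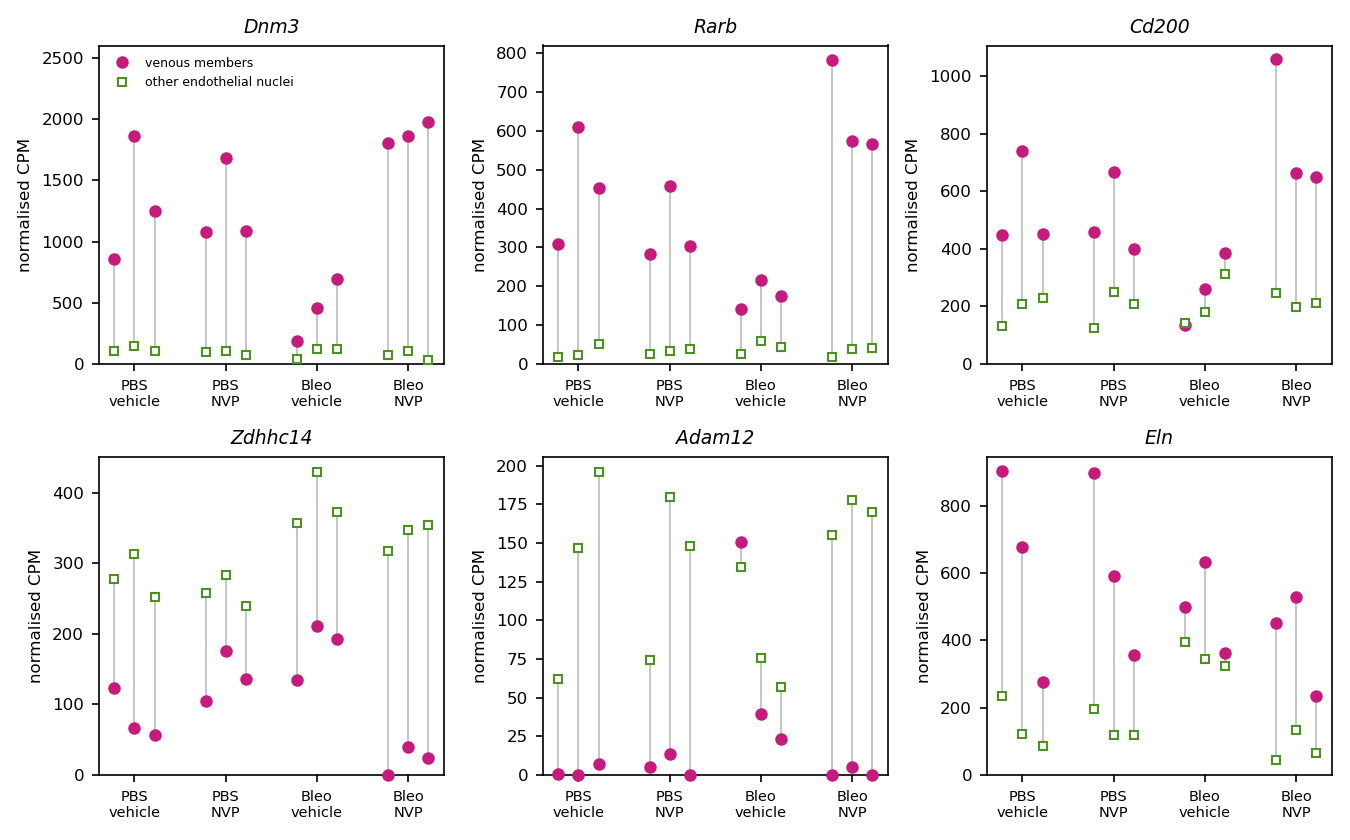
Normalized CPM of 6 genes in the venous members (filled circles) and in the other endothelial nuclei (open squares) of the same library, joined by a line, for the 3 libraries of each group. The group means of Dnm3, Rarb and Cd200 in members were lowest in bleomycin vehicle, where Cd200 of library 1 lay below other endothelium, Zdhhc14 stood below it in every library, Adam12 stood below it in all but library 1 of bleomycin vehicle, and Eln was higher in other endothelium of bleomycin vehicle than in that of the other groups.

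Elastin differed through the other side of the contrast. Eln averaged 619 ± 318 normalized CPM in members of PBS vehicle and 499 ± 135 in bleomycin vehicle, and in other endothelium 148 ± 77.3 and 354 ± 37. The members' change relative to other endothelium was -1.59 ± 0.27 (log2, edgeR, adjusted p = 0.00275), and 1.77 ± 0.31 (adjusted p = 0.00376, edgeR) for NVP-BHG712 under bleomycin, where Eln was at 405 ± 151 in members and 81.3 ± 46.1 in other endothelium. Both calls were lost in endothelial members without likely doublets (edgeR, adjusted p = 0.061 and 0.0959). Within the members themselves Eln did not pass in either comparison (log2 -0.22 and -0.42). Genes with a lower value in members included Zdhhc14, a palmitoyltransferase (-2.60), Adam12, a metalloprotease (-5.07), Myo5a (-3.49), Pde8b (-3.05) and Ctnnd2 (-2.86). Zdhhc14 and Adam12 held in endothelial members without likely doublets (edgeR, adjusted p = 0.0226 each), while Myo5a (0.0959), Pde8b (0.148) and Ctnnd2 (0.25) were lost. Zdhhc14 was at 135, 211 and 192 normalized CPM in members of bleomycin vehicle and at 0, 40.3 and 23.6 in bleomycin NVP-BHG712, against 318 to 430 in other endothelium of both groups. It was also the only gene of 8205 (0.0122%) to differ between bleomycin NVP-BHG712 and PBS NVP-BHG712 (-2.65, with an adjusted p of 0.826, edgeR, in endothelial members without likely doublets). Adam12 was at 0 to 7.06 in members of PBS vehicle, at 151, 39.2 and 23.5 in bleomycin vehicle and at 0, 5.03 and 0 in bleomycin NVP-BHG712, and other endothelium was at 56.8 to 196 throughout.

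For PBS NVP-BHG712 against PBS vehicle 1 gene of 8205 (0.0122%) differed between members and other endothelium. This was Ryr2, the calcium release channel of heart muscle (-5.18 ± 0.78, edgeR, adjusted p = 0.0107). Its members were at 482, 67.1 and 0 normalized CPM in PBS vehicle and at 9.19, 0 and 41.9 in PBS NVP-BHG712, and the 8 cardiomyocyte genes made up 0.126% of member UMIs in PBS vehicle library 1. That library held 528 of the 540 Ryr2 UMIs of PBS vehicle members. Among endothelial members the value was 0.80 with the opposite sign, so this call did not hold there. Which nuclei carried the Ryr2 UMIs was not tested.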

How the data were processed

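Nuclei of 12 lungs were sequenced with the 10x 3′ v3.1 kit. The authors aligned reads to mm10 with Cell Ranger (7.2.0 in the file headers, 7.0 in the submitters' notes, which also name Seurat 4.4.1) and deposited filtered matrices of raw UMI counts per gene and barcode, which were used as deposited (31053 genes). In its own work the paper removed ambient RNA, which comes from outside the nucleus, with DecontX and detected doublets with DoubletFinder. Ambient RNA was not removed here, and its part in the results was not tested. The members, gene lists and tests were chosen with earlier results of these data known. Doublets were scored with scrublet in scanpy 1.11.5 per library (highest 0.8% per 1000 nuclei) and kept in the main result.

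Counts summed over members per library were tested with edgeR 4.0.16 (glmQLFit robust, TMM, filterByExpr by group) in R 4.3.3, with 1 mean per group over all 12 libraries and Benjamini-Hochberg adjustment over all genes tested. The 19 genes of the rule stayed in library sizes and out of tests. The within-library comparison used library as a block. DESeq2 1.42.0 was an alternative. Genes were named by this rule: called at an adjusted p under 0.05, mean of at least 20 CPM, no overlap of the groups' CPM and no predicted-gene symbol, then the 10 largest rises and falls (5 elsewhere); all genes of the fixed lists could also be named. Rarb, St6gal1 and Cd200 were named by this rule within libraries for bleomycin vehicle against PBS vehicle. Their within-library values for NVP-BHG712 under bleomycin were added outside the rule, after seeing the data. Other choices are said to be made after seeing the data where they occur. Identity genes needed 50 CPM in members and were ranked by the median ratio over libraries (20 named). Intervals cover counting error only. The scripts were tested on simulated data. GRCm38 coordinates come from GENCODE.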

Additional observations from a re-analysis of the deposited data

Results flagged for a closer look

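The interaction test set the difference between NVP-BHG712 and vehicle in bleomycin lungs against that in PBS lungs. Among genes that passed, the log2 values were 2.75 (Pcdh7), 2.04 (Rarb), 1.75 (Fli1) and 1.73 (St6galnac3). Lower values were -5.68 (Col3a1), -5.17 (Sh3rf3), -4.61 (mt-Cytb), -4.50 (mt-Atp6) and -4.43 (mt-Co1). In the bleomycin lungs batch and inhibitor cannot be told apart, so these values are not assigned to the inhibitor. The number of genes passing ran from 0 to 146 when single libraries were left out. High mitochondrial content in bleomycin vehicle was not particular to members. In endothelial members without likely doublets the adjusted p (edgeR) was 0.0989 for Pcdh7, 0.268 for Rarb, 0.363 for Fli1 and 0.3 for St6galnac3, and it was 0.000949 to 0.00123 for the mitochondrial genes. Col3a1 and Sh3rf3 were too low to test there. In endothelial members both had 0.107 and without likely doublets 0.122 and 0.301.

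The change in members differed from that in other endothelial nuclei, by the test of that difference, for bleomycin vehicle against PBS vehicle at Adam12 (5.0), Rarb (-2.10), St6gal1 (-1.49) and Cd200 (-1.25). For bleomycin NVP-BHG712 against bleomycin vehicle it differed at Lpcat2 (2.95), Pla2g4a (2.56), Bace2 (2.51), Dnm3 (2.45), Chn2 (2.36), Adam12 (-5.07), Myo5a (-3.49), Pde8b (-3.05), Ctnnd2 (-2.86) and Zdhhc14 (-2.60). For PBS NVP-BHG712 against PBS vehicle it differed at Ryr2 (-5.18), and for bleomycin NVP-BHG712 against PBS NVP-BHG712 at Zdhhc14 (-2.65). In endothelial members without likely doublets the adjusted p (edgeR) held under the threshold for Dnm3, Adam12 in both comparisons, Rarb, and Zdhhc14 for bleomycin NVP-BHG712 against bleomycin vehicle. It was 0.0527 for St6gal1, 0.0957 for Cd200, 0.111 for Lpcat2, 0.107 for Pla2g4a, 0.0827 for Bace2, 0.193 for Chn2, 0.0959 for Myo5a, 0.148 for Pde8b, 0.25 for Ctnnd2, 0.826 for Zdhhc14 against PBS NVP-BHG712 and 1 for Ryr2.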

How the results depend on the processing

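In the order bleomycin vehicle against PBS vehicle, bleomycin NVP-BHG712 against bleomycin vehicle, PBS NVP-BHG712 against PBS vehicle, bleomycin NVP-BHG712 against PBS NVP-BHG712 and the interaction, leaving out 1 library gave 10 to 139, 35 to 416, 0 to 0, 0 to 3 and 0 to 146 genes. Without a filter on low counts they were 305, 693, 15, 46 and 300. DESeq2 gave 92 for the first and 104 for the interaction. For the first comparison only, the 6 libraries compared gave 10, members with Slc6a2 66, removal of genes 10 times higher in another class 46, and removal of mitochondrial genes 2. For the second, 94 passed without likely doublets, 124 in endothelial members and 60 with both limits. The 6 libraries alone gave 3 for bleomycin NVP-BHG712 against PBS NVP-BHG712. The interaction had 7 without likely doublets, 64 with the stricter rule of 4 UMIs over 3 genes, 59 with Slc6a2 and 40 without genes of other classes.

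For members minus other endothelium, in the order of the first 4 comparisons, leaving out 1 library gave 5 to 37, 15 to 70, 0 to 5 and 0 to 3 genes, and no filter 77, 100, 19 and 7. Endothelial members gave 14 for the first, 3 for PBS NVP-BHG712 against PBS vehicle and 0 for the last. The stricter rule gave 18, 79 and 4 for the first, second and last, and members with Slc6a2 85, 156 and 4. Endothelial members without likely doublets gave 21, 10 and 0 for the last 3. Removal of likely doublets gave 15 for the second and 0 for the last, removal of genes of other classes 15, 63 and 0 for the first 3, and a limit of 1% mitochondrial UMIs, which left 11 libraries, 0 for PBS NVP-BHG712 against PBS vehicle.

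With the replicate number as a block, 111 genes passed in the first comparison, 399 in the second (312 of the 326 among them), 0 in both comparisons with PBS NVP-BHG712 and 49 in the interaction. Whether the numbers pair the lungs is not known. Same-numbered libraries had correlations of their deviations from group means of -0.159 to 0.411. The highest was between library 1 of PBS vehicle and library 1 of PBS NVP-BHG712, which share a run number. It was above that of every pair with unlike numbers. The other same-numbered pairs lay within the range of the pairs with unlike numbers.

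The share of members for bleomycin vehicle minus PBS vehicle turned negative in endothelial members (-0.449 percentage points), with the stricter rule (-0.247), at 1% mitochondrial UMIs (-0.365), in endothelial members without likely doublets (-0.436) and after thinning (-0.827), and as a share of endothelium after thinning (-1.15). For bleomycin NVP-BHG712 minus bleomycin vehicle it turned positive after thinning (0.168, and 0.596 of endothelium). Leaving out 1 library gave -0.972 to 1.21, -1.92 to 0.265, -0.933 to 0.247 and -0.954 to 0.227 in the order of the 4 comparisons, and of endothelium 1.48 to 7.18, -7.58 to -1.87, -2.90 to -0.252 and -0.145 to 2.34. Efnb2 under NVP-BHG712 in bleomycin lungs turned to -0.77 with the stricter rule and -0.62 with Slc6a2, and Ryr2 to 0.80 in endothelial members. Of 1338 values of named genes under alternatives, 1043 kept direction and side of the threshold, 292 kept direction only and 3 reversed. The bleomycin NVP-BHG712 members held 69743 to 199980 UMIs per library. The causes of these changes were not tested.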
